A study of Rattus norvegicus with 372 samples.

Results

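Hepatocytes export bile acids, sterols, drugs and their conjugates through ATP-binding cassette (ABC) pumps, and 10 of these genes were followed here in primary rat hepatocytes: Abcb11, Abcb4, Abcb1a, Abcb1b, Abcc2, Abcg2, Abcg5 and Abcg8, whose proteins sit in the canalicular membrane, and Abcc3 and Abcc4, whose proteins sit in the basolateral membrane. A gene was included when the name of a probe, without its probe number and without regard to letter case, equalled one of the 10 symbols. The whole transcriptome (WT) assay held 8 of them among 20946 genes, and the surrogate S1500+ (ST) assay, a smaller set of probes chosen to stand for the transcriptome, held 9 among 2604 genes. Each was read by 1 probe.

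In liver, the canalicular pumps form bile. Abcb11 exports bile salts, Abcb4 moves phosphatidylcholine into the outer leaflet of the membrane, Abcc2 exports glutathione and glucuronide conjugates including conjugated bilirubin, Abcg2 exports sulphated and other drugs, Abcg5 and Abcg8 export sterols as a heterodimer, and Abcb1a and Abcb1b encode the rodent P-glycoproteins, which export drugs. The basolateral pumps Abcc3 and Abcc4 return conjugates and bile acids to the blood, a route known to gain weight when the canalicular one is blocked. Messenger RNA was measured here, and neither the proteins nor transport.

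The hepatocytes came from male Wistar rats, 1 rat for each of the 2 batches, and were cultured between layers of collagen. Exposure lasted 24 h. Of each of 14 chemicals 2 concentrations were given, in 3 wells per treatment and batch, and every treated or vehicle well contained 0.5% DMSO. Vehicle wells numbered 3 in batch 1 and 6 in batch 2, and wells with medium alone, without DMSO, numbered 3 and 6. The wells of a batch therefore share 1 animal, and p-values over wells measure mostly the spread between wells. All treatments of a batch were compared with the same vehicle wells. High and low concentrations were 10000 and 400 µM for acetaminophen, caffeine, isoniazid and valproic acid, 400 and 16 µM for diclofenac, 300 and 12 µM for indomethacin, 2000 and 80 µM for naproxen, 4000 and 160 µM for ranitidine, 60 and 2.4 µM for simvastatin, 100 and 4 µM for sulfasalazine, 200 and 8 µM for WY14643 (an agonist of the nuclear receptor PPARα), 450 and 18 µM for chloramphenicol, 15 and 0.6 µM for ketoconazole, and 2 and 0.08 µM for doxorubicin.

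Levels are given as CPM (reads scaled to the library total of the well), which are relative to the probes of one assay and are not compared between assays. Transporters are not ranked against each other by CPM, since probes can differ in yield, and the same limit holds for sums over marker genes. WT wells held 2289425 to 8975207 reads and ST wells 558190 to 2210264. The cells carried the hepatocyte markers: the summed level of Alb, Ttr, Apoa1, Tf, Cps1 and Serpina1 was 36873 to 40166 CPM in the WT vehicle wells of batch 1 and 39778 to 43998 CPM in batch 2. The sum of 6 Kupffer cell and leukocyte markers was 37.5 to 45.9 and 25.8 to 35.7 CPM. Of the 5 markers of the sinusoidal endothelium, 4 were under 1 CPM on average in the vehicle wells of each batch. Stellate cell markers summed to 206 to 301 CPM, with Reln at 261 and 238 CPM on average in the batches and Des and Col1a1 at or under 0.10 CPM. Cholangiocyte markers summed to 37.7 to 50.6 CPM, with Epcam at 32.1 and 40.5 CPM and Krt7 at 0. In such bulk wells, fewer cells of a type and less RNA per cell cannot be told apart.

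A gene was tested when its mean count over all wells was at least 10, which kept 6 of the 8 transporters in the WT assay (Abcb11, Abcc2, Abcg2, Abcc3, Abcc4 and the probe named Abcb4) and 7 of the 9 in the ST assay. Abcg5 and Abcg8 stayed below it in both. One probe number carries the name Abcb4 in the WT table and Abcb1a in the ST table, so the gene it reads is not settled, and it is called the Abcb4/Abcb1a probe below. In the WT assay its mean count was 6.45 in the wells of groups where it was not called higher, so it passed the limit of 10 only through the groups where it was high. Abcb1b was read by the ST assay only. A log2 fold change against vehicle (L2FC) was called when its adjusted p was under 0.05.

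At least 1 transporter was called at each of the 14 high concentrations, and 5 or 6 of the 6 tested were called at 9 of them, in both directions at 8. Of the 5 left without the Abcb4/Abcb1a probe, 4 or 5 were called at the same number of high concentrations. At high concentrations, 36 of 84 pairs of a transporter and a treatment were called higher (42.9%) and 24 lower (28.6%), where 25.4% of all gene and treatment pairs were called higher and 25.5% lower. At low concentrations 7 of 84 pairs were called higher and 8 lower, where the shares over all genes were 4.9% and 4.5%. Without the Abcb4/Abcb1a probe, 26 of 70 high-concentration pairs were called higher (37.1%) and 22 lower (31.4%). The median absolute L2FC of the 84 high-concentration pairs was 0.79, or 0.65 without that probe, against 0.35 over all genes tested. Of the 75 calls in all, 74 had the same sign in each batch fitted alone, and the exception was Abcb11 with caffeine 10000 µM. When the wells of a treatment were added to 1 sum per rat, 51 of the 75 were still called.

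Low-concentration calls came from 4 treatments. With WY14643 8 µM all 6 transporters tested were called, where 56.2% of all genes were, and with valproic acid 400 µM 5 of 6 were called, where 29.1% of all genes were. Naproxen 80 µM gave 3 calls of 6, with 16.0% of all genes called. The remaining call was Abcc2 with doxorubicin 0.08 µM, at an L2FC of 0.57 (0.15 in batch 1 and 0.88 in batch 2), which was not called in the ST assay (0.43, adjusted p = 0.15). WY14643 200 µM also gave 6 calls of 6, with 51.3% of all genes called. Indomethacin 300 µM was the treatment with the most transporters called higher, 5 of 6 with none lower, where 54.7% of all genes were called in either direction. The Abcb4/Abcb1a probe, which passed the count limit through its high groups, was among the 5. It was also called with both WY14643 concentrations, and not with valproic acid 400 µM or naproxen 80 µM.

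**Figure D1:**
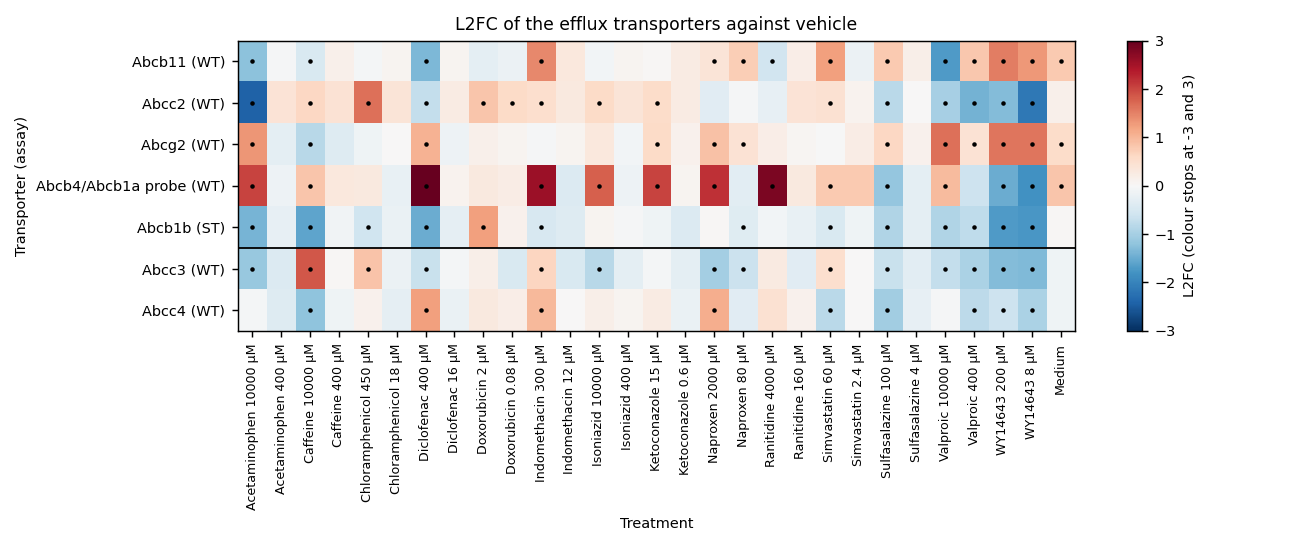
L2FC of each tested transporter (rows) against vehicle for the 28 treatments and medium alone (columns), from blue (lower) to red (higher). Dots mark adjusted p under 0.05, the line separates canalicular pumps (above) from basolateral pumps (below), and Abcb1b comes from the ST assay and the others from the WT assay. The row of the Abcb4/Abcb1a probe holds the highest value, an L2FC of 3.73 with diclofenac 400 µM.

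Abcb11, the bile salt export pump, was higher with WY14643, indomethacin and simvastatin and lower with valproic acid, diclofenac and acetaminophen at their high concentrations. In vehicle it was at 76.4, 77.5 and 89.8 CPM in batch 1 and at 114 to 140 CPM (median 125) in batch 2. With WY14643 200 µM the wells held 207, 225 and 225 CPM in batch 1 and 282, 299 and 324 CPM in batch 2, all above every vehicle well of their batch. The L2FC was 1.55 (SE 0.14, adjusted p = 3.6e-20), or 2.92-fold, and at 8 µM it was 1.29. With indomethacin 300 µM the level was 234, 247 and 265 CPM in batch 1 and 226, 259 and 280 CPM in batch 2, again without overlap with vehicle. Its L2FC was 1.45 (SE 0.14, adjusted p = 3.3e-18). Simvastatin 60 µM followed with an L2FC of 1.22, ahead of valproic acid 400 µM (0.81), sulfasalazine 100 µM (0.79), naproxen 80 µM (0.75) and naproxen 2000 µM (0.38).

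Valproic acid moved Abcb11 in opposite directions at its concentrations. At 10000 µM the wells held 35.9, 38.0 and 41.4 CPM in batch 1 and 30.4, 40.9 and 41.7 CPM in batch 2, below every vehicle well. The L2FC was -1.71 (SE 0.16, adjusted p = 3.2e-20), a 3.26-fold lower level, and high minus low concentration differed by -2.52 (SE 0.17, adjusted p = 4.8e-31). Diclofenac 400 µM gave 33.3, 53.5 and 57.2 CPM in batch 1 and 38.5, 39.0 and 45.1 CPM in batch 2, an L2FC of -1.34 (SE 0.15, adjusted p = 1.2e-14). Acetaminophen 10000 µM (-1.23), ranitidine 4000 µM (-0.58) and caffeine 10000 µM (-0.45) were also called lower. The last 2 rested on batch 2: with caffeine the L2FC was 0.19 in batch 1 and -1.13 in batch 2, and with ranitidine it was -0.07 and -1.02 (difference -0.96, adjusted p = 1.3e-04).

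Hepatocyte markers were lower in the same wells. The summed level of the 6 markers was 7025 to 9316 CPM with diclofenac 400 µM in batch 1 and 6885 to 8602 CPM in batch 2, and 15507 to 21969 CPM over both batches with valproic acid 10000 µM. With WY14643 8 µM the marker sum was 37587 to 38043 CPM in batch 1, within the range of vehicle. In batch 2 it was 37106 to 39150 CPM, below every vehicle well. With WY14643 200 µM it was 29933 to 33117 CPM in batch 1 and 33989 to 34899 CPM in batch 2, below every vehicle well of its batch, and with indomethacin 300 µM, where Abcb11 rose, it was 22620 to 28348 CPM. Over both batches the marker sum was 11822 to 17571 CPM with ranitidine 4000 µM, 19399 to 20568 CPM with naproxen 2000 µM and 23220 to 36338 CPM with acetaminophen 10000 µM. With doxorubicin 2 µM it was 24924 to 30286 CPM. These wells lay below every vehicle well of their batch, and those of sulfasalazine 100 µM, at 40994 to 44761 CPM, did not. Over all high concentrations 53 of 84 marker and treatment pairs were called lower and 7 higher, where all genes gave 25.5% and 25.4%. Markers of other cells moved too. In vehicle wells the stellate cell sum was nearly all Reln and the cholangiocyte sum mostly Epcam, so these sums need not stand for a cell type. The Kupffer cell and leukocyte sum was 4.00 to 7.86 CPM with doxorubicin 2 µM, where Abcb1b and Abcc2 rose. The stellate cell sum was 47.5 to 68.9 CPM with WY14643 200 µM and 66.3 to 79.8 CPM with 8 µM. With caffeine 10000 µM the hepatocyte sum was 15845 to 22002 CPM, the Kupffer cell and leukocyte sum 5.64 to 14.2 CPM and the stellate cell sum 35.8 to 73.7 CPM. Members of a sum could differ, and the hepatocyte marker Cps1 had its highest L2FC with caffeine 10000 µM (2.18, SE 0.16). Among the Kupffer cell and leukocyte markers, Cd68 was called higher in 9 treatments and lower in 0. Clec4f, Cd163 and Csf1r were called higher in 0 and lower in 11, 12 and 8. With chloramphenicol 450 µM the hepatocyte sum was 22480 to 30497 CPM and the stellate cell sum 75.5 to 157 CPM. The cholangiocyte sum was 51.0 to 77.2 CPM with valproic acid 10000 µM. The part of these shifts in the transporter values was not tested.

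Abcc2, the conjugate pump, gave the lowest L2FC of any transporter tested. It was at 59.5, 61.2 and 68.2 CPM in the vehicle wells of batch 1 and at 37.7 to 52.6 CPM (median 43.5) in batch 2. With acetaminophen 10000 µM it was at 3.02, 3.57 and 5.23 CPM in batch 1 and at 5.40, 10.7 and 11.8 CPM in batch 2, an L2FC of -2.43 (SE 0.18, adjusted p = 1.0e-27) or 5.39-fold lower. The fall was larger in batch 1 (L2FC -3.51) than in batch 2 (-1.85), a difference of 1.67 (SE 0.29, adjusted p = 8.1e-06). WY14643 8 µM brought Abcc2 to 7.44, 12.5 and 16.1 CPM in batch 1 and 5.53, 7.78 and 8.47 CPM in batch 2 (L2FC -2.13, SE 0.17, adjusted p = 2.1e-23). At 200 µM the L2FC was -1.31, and high minus low concentration was 0.83 (SE 0.19, adjusted p = 0.0014). That difference was not called with 1 sum of wells per rat (adjusted p = 0.257) or in the ST assay (0.58, adjusted p = 0.0974).

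Valproic acid 400 µM (L2FC -1.42), valproic acid 10000 µM (-1.0), sulfasalazine 100 µM (-0.80) and diclofenac 400 µM (-0.72) also lowered Abcc2. Chloramphenicol 450 µM raised it most, to 182, 203 and 205 CPM in batch 1 and 135, 167 and 172 CPM in batch 2, with no overlap with vehicle. That was an L2FC of 1.65 (SE 0.14, adjusted p = 3.4e-20), and the low concentration was not called. Doxorubicin 2 µM gave 79.8, 86.4 and 97.2 CPM in batch 1 and 80.1, 83.3 and 123 CPM in batch 2, an L2FC of 0.84 (SE 0.15, adjusted p = 1.3e-06). With 1 sum of wells per rat this last call was lost (adjusted p = 0.0895).

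**Figure D2:**
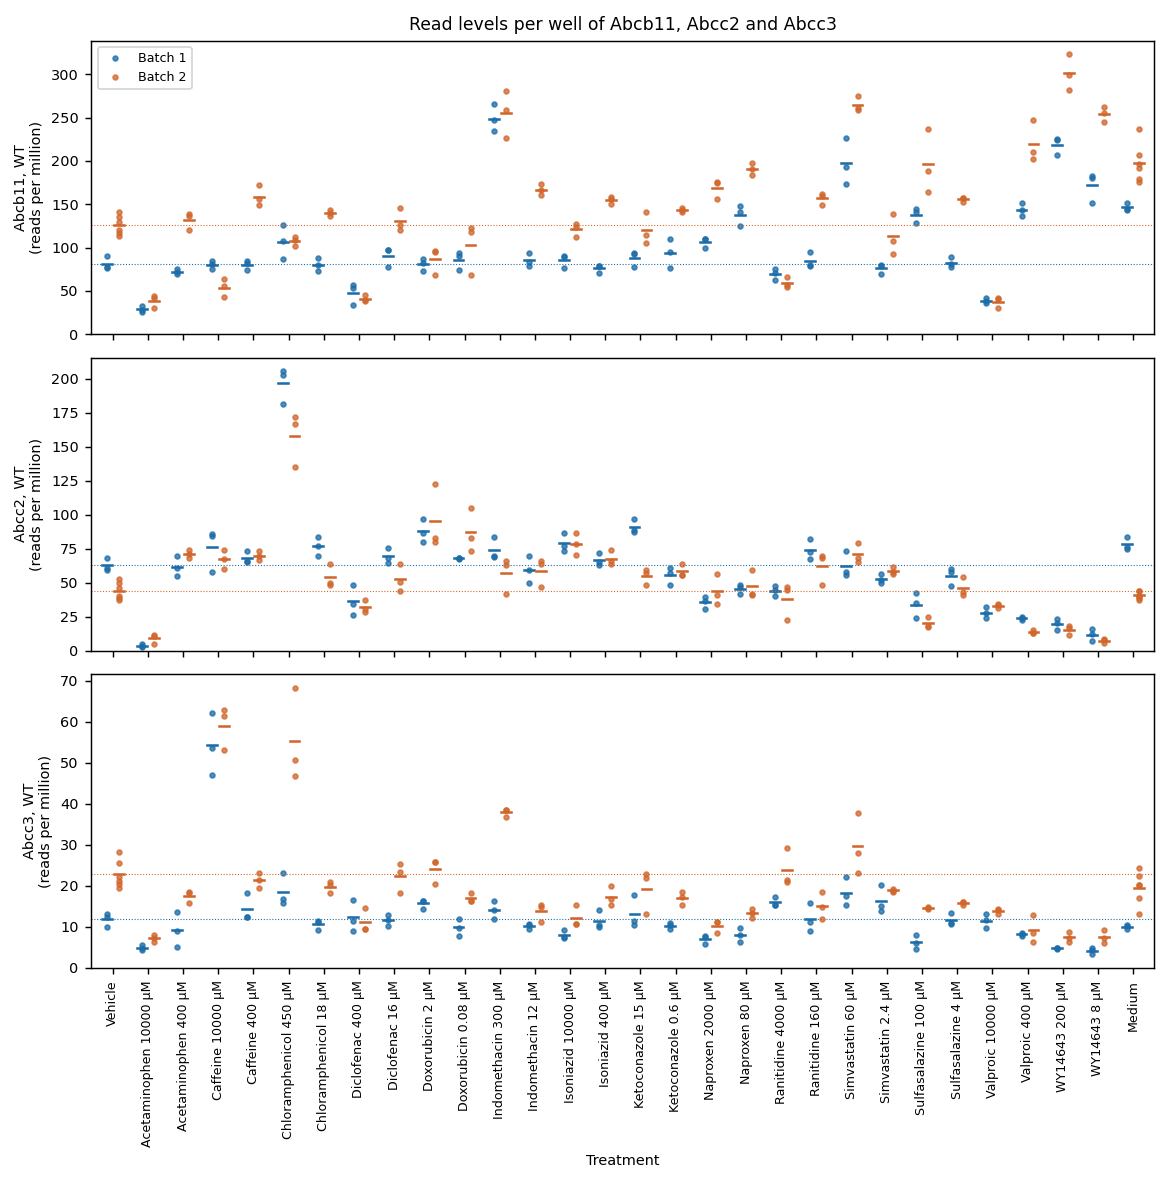
Level of Abcb11 (top), Abcc2 (middle) and Abcc3 (bottom) in every WT well, in CPM, for vehicle, the 28 treatments and medium alone. Points are wells, short bars the mean of a treatment and batch, and dotted lines the vehicle mean of each batch. With WY14643 the wells of Abcb11 lie above vehicle, while those of Abcc2 and Abcc3 lie below it.

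Abcg2, the breast cancer resistance protein, was called higher at 7 of 14 high concentrations and lower at 1, and was not called at 6, where 25.4% and 25.5% of all pairs were called higher and lower. Vehicle wells held 13.3, 15.1 and 17.7 CPM in batch 1 and 16.6 to 26.7 CPM (median 21.6) in batch 2. Valproic acid 10000 µM raised it to 61.5, 61.6 and 66.8 CPM in batch 1 and to 43.0, 73.5 and 76.1 CPM in batch 2, an L2FC of 1.65 (SE 0.16, adjusted p = 6.2e-19). WY14643 8 µM gave 27.2, 31.5 and 35.9 CPM and 54.3, 59.2 and 69.5 CPM in the batches, an L2FC of 1.61 (SE 0.16, adjusted p = 6.4e-18), and 200 µM also gave 1.61. Both treatments left no overlap with the vehicle wells. Acetaminophen 10000 µM (1.33), diclofenac 400 µM (1.05), naproxen 2000 µM (0.88), sulfasalazine 100 µM (0.63) and ketoconazole 15 µM (0.56) followed.

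Caffeine 10000 µM was the only treatment that lowered Abcg2 past the threshold. The wells held 2.61, 3.81 and 4.81 CPM in batch 1, all below vehicle, and 12.8, 16.8 and 18.3 CPM in batch 2, which overlapped vehicle. The pooled L2FC was -0.83 (SE 0.18, adjusted p = 1.6e-05), made of -1.82 in batch 1 and -0.34 in batch 2, and these differed by 1.49 (SE 0.26, adjusted p = 7.3e-06).

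The drug pumps of the P-glycoprotein kind are encoded, with Abcb4, by neighbouring paralogous genes on chromosome 4. Their promoters are shown because Abcb1b and the Abcb4/Abcb1a probe responded differently. The windows run from 250 bases before to 50 bases after the start given for each gene on the minus strand of assembly GRCr8 (RefSeq), chr4:26279980-26280279 for Abcb1b and chr4:26397599-26397898 for Abcb1a, and capitals mark CCAAT or its reverse complement ATTGG. The Abcb1a window lies inside the annotated gene, which spans 26312403 to 26488456, so the annotation reaches further upstream than this window.
Abcb1b: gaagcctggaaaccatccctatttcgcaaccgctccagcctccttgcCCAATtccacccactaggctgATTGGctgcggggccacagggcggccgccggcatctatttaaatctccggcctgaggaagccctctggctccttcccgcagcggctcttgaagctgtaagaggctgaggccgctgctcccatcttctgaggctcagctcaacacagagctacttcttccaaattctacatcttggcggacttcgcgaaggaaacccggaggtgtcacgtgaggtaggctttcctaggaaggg
Abcb1a: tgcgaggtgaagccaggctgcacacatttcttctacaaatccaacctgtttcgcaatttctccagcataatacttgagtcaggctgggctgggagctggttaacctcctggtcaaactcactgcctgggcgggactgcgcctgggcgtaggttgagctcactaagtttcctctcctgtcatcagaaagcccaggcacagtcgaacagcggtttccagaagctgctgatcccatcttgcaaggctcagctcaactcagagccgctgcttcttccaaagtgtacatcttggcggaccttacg
The Abcb1b window holds 2 such matches and the Abcb1a and Abcb4 windows 0, where 37.5% of the 33469 promoters of this length hold at least 1. A match describes the letters only. Promoters of 8 of the 10 genes were matched, all but Abcb11 and Abcc3.

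Abcb1b was the most deeply read transporter of the ST assay, with a mean of 3246 reads per well. It was at 3395, 3739 and 3887 CPM in the vehicle wells of batch 1 and at 2076 to 2751 CPM (median 2351) in batch 2. Doxorubicin 2 µM, an intercalating anti-cancer drug and a known cargo of P-glycoprotein, gave 7945, 8518 and 10948 CPM in batch 1 and 5260, 6469 and 6473 CPM in batch 2, above every other vehicle or treated well of their batch. The L2FC was 1.22 (SE 0.14, adjusted p = 6.0e-14), or 2.34-fold, and it was the only one of 28 treatments called higher. The names of some chemicals may be exchanged, and the value belongs to the wells labelled doxorubicin. In the WT assay these wells had an L2FC of 1.45 for Cdkn1a and 1.28 for Mdm2, both p53 targets. For the sterol genes Insig1, Idi1 and Sqle it was -0.56, 0.24 and -0.38. These genes were chosen after their values were seen. At 0.08 µM the L2FC of Abcb1b was 0.13 and was not called, and high minus low concentration was 1.10 (SE 0.15, adjusted p = 1.8e-09).

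Abcb1b was lowered by 9 of the 14 high concentrations and 3 of the 14 low ones, where 29.7% and 5.57% of all ST gene and treatment pairs were called lower, and 27.9% and 6.33% higher. WY14643 8 µM gave 644, 682 and 682 CPM in batch 1 and 511, 562 and 651 CPM in batch 2, an L2FC of -1.74 (SE 0.15, adjusted p = 4.7e-22). WY14643 200 µM gave 533, 738 and 911 CPM in batch 1 and 526.5, 570 and 598 CPM in batch 2, an L2FC of -1.70 (SE 0.15, adjusted p = 2.9e-21). The levels at both concentrations lay well under vehicle, and high minus low was 0.05 (SE 0.15), not called. Caffeine 10000 µM (-1.58), diclofenac 400 µM (-1.49) and acetaminophen 10000 µM (-1.40) were close behind.

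The Abcb4/Abcb1a probe was read only 4 to 14 times per WT vehicle well. Since it passed the count limit through its high groups, its WT values are a description and the tests below are those of the ST assay, where its mean count was 11.1 in the wells of groups not called higher. Its level was 0.714, 1.09 and 1.09 CPM in the WT vehicle wells of batch 1 and at 0.587 to 2.10 CPM (median 0.971) in batch 2. Diclofenac 400 µM raised it to 16.3, 16.8 and 17.9 CPM in batch 1 and 11.8, 13.7 and 16.3 CPM in batch 2, an L2FC of 3.73 (SE 0.25) or 13.3-fold. Ranitidine 4000 µM gave 4.52, 5.69 and 6.21 CPM and 7.30, 7.80 and 11.3 CPM in the batches (L2FC 2.83, SE 0.26). The WT L2FC was next highest with indomethacin 300 µM (2.57), naproxen 2000 µM (2.2), acetaminophen 10000 µM (2.02), ketoconazole 15 µM (2.02) and isoniazid 10000 µM (1.80). WY14643 lowered it to between 0 and 0.709 CPM at both concentrations (L2FC -1.82, SE 0.48 at 8 µM and -1.50, SE 0.42 at 200 µM), on few reads per well.

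In the ST assay the same probe, named Abcb1a there, was called higher at 10 of 14 high concentrations. Its L2FC was 3.67 (SE 0.23, adjusted p = 1.5e-33) with diclofenac 400 µM and 2.00 (SE 0.24, adjusted p = 2.2e-13) with ranitidine 4000 µM. It rose by 2.5 (SE 0.24, adjusted p = 3.7e-19) with acetaminophen 10000 µM, and its L2FC was -1.33 (SE 0.35, adjusted p = 4.6e-04) with WY14643 8 µM and -1.78 (SE 0.37, adjusted p = 1.3e-05) with 200 µM. Caffeine 10000 µM was called higher in the WT assay (0.84, with wells that overlapped vehicle in both batches) and not in the ST assay (-0.24). Of its 13 WT calls and 15 ST calls, 12 were shared and all 12 had the same direction. This overlap is a description too, since the probe passed the WT count limit through its high groups. Pearson's r between the assays over all wells, which share their lysates, was 0.823 on log2(CPM + 1). In the fit of the same assay, Abcb1b was at -1.49 with diclofenac 400 µM and -0.09 with ranitidine 4000 µM.

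**Figure D3:**
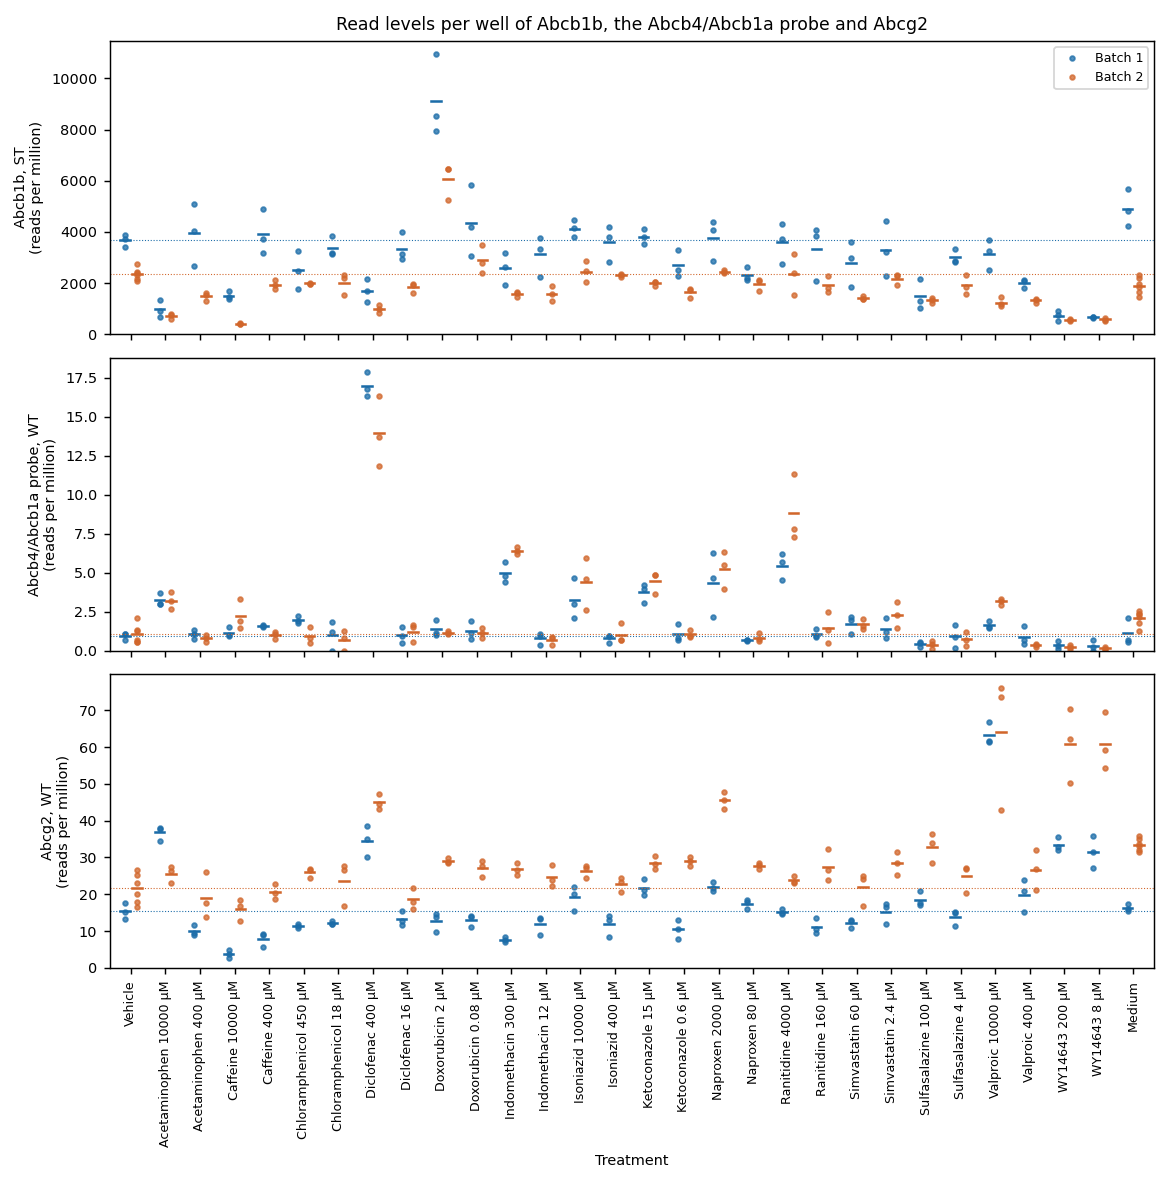
Level of Abcb1b in the ST assay (top) and of the Abcb4/Abcb1a probe (middle) and Abcg2 (bottom) in the WT assay, in CPM, for vehicle, the 28 treatments and medium alone. Points are wells, short bars the mean of a treatment and batch, and dotted lines the vehicle mean of each batch. The wells of Abcb1b with doxorubicin 2 µM lie at 5260 CPM and above, and those of the Abcb4/Abcb1a probe with diclofenac 400 µM at 11.8 CPM and above.

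**Figure D4:**
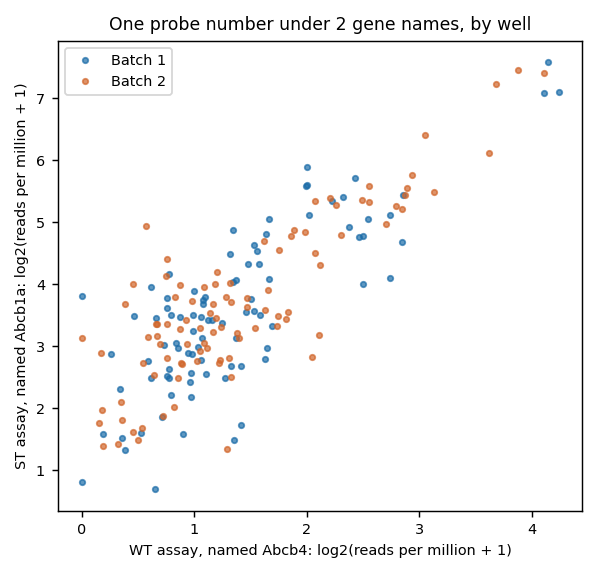
Level of the Abcb4/Abcb1a probe in each well by WT assay (horizontal axis) and by ST assay (vertical axis), both as log2(CPM + 1), coloured by batch. Pearson's r was 0.823, and single wells departed from it, such as a vehicle well of batch 2 at 0.691 CPM in the WT assay and 20.3 CPM in the ST assay.

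The sterol pumps Abcg5 and Abcg8 lie head to head on chromosome 6, so that their promoter windows share 295 of 300 bases. The window of Abcg5 is shown because 1 sequence serves both genes while only Abcg5 gave reads in number (GRCr8, RefSeq, plus strand, chr6:15717686-15717985, capitals as above).
Abcg5: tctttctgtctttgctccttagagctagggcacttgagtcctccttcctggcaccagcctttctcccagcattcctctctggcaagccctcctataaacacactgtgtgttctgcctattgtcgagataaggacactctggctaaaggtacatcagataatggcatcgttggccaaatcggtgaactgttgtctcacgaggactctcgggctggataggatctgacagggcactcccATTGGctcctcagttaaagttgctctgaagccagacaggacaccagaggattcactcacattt
In ST vehicle wells Abcg5 had 0 reads in all 3 wells of batch 1 and all 6 of batch 2, which allows up to 0.800 and 0.390 CPM over the group (3 counts). Caffeine 10000 µM gave 23, 25 and 37 reads in batch 1 and 6, 8 and 12 in batch 2, which was 37.5-fold and 15.6-fold those vehicle limits. Simvastatin 60 µM, which inhibits sterol synthesis, gave 10, 11 and 14 reads and 6, 9 and 13 reads, 14.0-fold and 18.4-fold the limits. Naproxen 2000 µM (10.9-fold and 8.67-fold), indomethacin 300 µM (10.4-fold and 2.67-fold), WY14643 200 µM (9.22-fold and 6.63-fold) and WY14643 8 µM (4.81-fold and 4.02-fold) also had reads in every well of both batches. These ratios leave out the counting error of the treated wells, and that of indomethacin in batch 2 rests on 6 reads. In the WT assay Abcg5 had 2 and 1 reads in the vehicle wells of the batches, 34 and 17 with caffeine 10000 µM and 33 and 13 with simvastatin 60 µM, but 14 and 1 with indomethacin 300 µM, and in batch 2 reads were seen in 2 of 3 wells for simvastatin 60 µM and WY14643 200 µM. No test was run on Abcg5. Abcg8 had 20 reads over all ST wells and 10 over all WT wells. Of the latter, 4 fell in 2 of the 3 wells of caffeine 10000 µM in batch 1, where vehicle had 0, and all other groups had at most 2 reads in either assay.

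Abcc3, the basolateral pump for glucuronides and bile acids, was raised by caffeine and lowered by WY14643. Vehicle wells held 10.0, 12.5 and 13.2 CPM in batch 1 and 19.4 to 28.2 CPM (median 21.6) in batch 2. Caffeine 10000 µM gave 47.0, 53.7 and 62.2 CPM in batch 1 and 53.0, 61.4 and 62.8 CPM in batch 2, above all vehicle wells, an L2FC of 1.87 (SE 0.14, adjusted p = 4.9e-26) or 3.65-fold. Chloramphenicol 450 µM gave 15.7, 16.8 and 23.2 CPM and 46.8, 50.8 and 68.3 CPM in the batches (L2FC 0.85, SE 0.14, adjusted p = 4.0e-07). In both batches these wells lay above vehicle. Indomethacin 300 µM (0.64) and simvastatin 60 µM (0.51) were the other high concentrations called higher.

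WY14643 brought Abcc3 down. At 8 µM its wells held 3.37, 4.25 and 4.89 CPM in batch 1 and 5.94, 7.24 and 9.30 CPM in batch 2 (L2FC -1.33, SE 0.17, adjusted p = 7.9e-12). At 200 µM they held 4.48, 4.84 and 4.86 CPM and 6.33, 7.38 and 8.69 CPM (L2FC -1.30, SE 0.17, adjusted p = 6.9e-12), and neither concentration overlapped vehicle. In all, 7 of 14 high concentrations were called lower for Abcc3 and 4 higher, where 25.5% and 25.4% of all pairs were.

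Abcc4, which exports cyclic nucleotides, nucleotide analogues and bile acids, had few reads, with a mean of 16.7 per WT well. Its level was 1.64, 2.5 and 2.54 CPM in the vehicle wells of batch 1 and 1.90 to 4.58 CPM (median 2.38) in batch 2. Diclofenac 400 µM gave 2.75, 6.63 and 8.22 CPM in batch 1 and 4.48, 7.16 and 7.63 CPM in batch 2, where the lowest well overlapped the highest vehicle well (L2FC 1.23, SE 0.21, adjusted p = 1.0e-07). Naproxen 2000 µM gave 3.36, 3.59 and 5.04 CPM and 5.32, 5.79 and 7.94 CPM (L2FC 1.10, SE 0.21, adjusted p = 3.9e-06), all above vehicle. Indomethacin 300 µM was the third call, at 0.97.

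Abcc4 fell with caffeine 10000 µM, to 0.578, 0.762 and 1.04 CPM in batch 1 and 0.761, 1.05 and 1.53 CPM in batch 2 (L2FC -1.21, SE 0.28, adjusted p = 6.8e-05). Sulfasalazine 100 µM gave 0.716, 0.758 and 0.852 CPM and 1.09, 1.5 and 1.52 CPM (L2FC -1.04, SE 0.27, adjusted p = 8.7e-04). Both lay below vehicle in each batch, but the sulfasalazine value was -0.62 (adjusted p = 0.19) in batch 2 with the vehicle wells of its own plate and -0.45 (adjusted p = 0.19) in the ST assay.

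Setting the membranes side by side, the canalicular pumps were called higher in 29 of 56 high-concentration pairs of the WT assay and lower in 13, and the basolateral pumps were called higher in 7 of 28 and lower in 11. Against vehicle the median L2FC of the canalicular pairs was 0.42 and that of the basolateral pairs 0.04. The shares over all genes were 25.4% higher and 25.5% lower, next to 25% of the basolateral pairs called higher. The Abcb4/Abcb1a probe gave 10 of the 29 calls, and without it the canalicular pumps were called higher in 19 of 42 pairs and lower in 11, with a median L2FC of 0.17. No treatment had every pump of one membrane called higher and every pump of the other called lower. In the ST assay, with Abcb1b included, the canalicular pumps were called higher in 30 of 70 pairs and lower in 23, and the basolateral pumps in 10 and 7 of 28, where the shares over all genes were 27.9% and 29.7%.

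Within a well, the ratio of Abcc3 to Abcb11 needs no scaling between wells. It is one of the possible basolateral to canalicular ratios. On the log2 scale it was -2.77 in the vehicle wells of batch 1 and -2.47 in batch 2. Treated minus vehicle, it rose by 2.2 and 2.62 in the batches with caffeine 10000 µM and by 1.03 and 1.05 with valproic acid 10000 µM. It dropped by 2.74 and 2.86 with WY14643 200 µM, by 2.57 and 2.62 with WY14643 8 µM and by 1.36 and 2.14 with valproic acid 400 µM. Wells lay above all vehicle wells of their batch in both batches for 3 high concentrations and below for 4, and at low concentrations for 0 and 3. Medium alone also lay below all vehicle wells in both batches, at -1.09 and -0.88 from vehicle. Of the 14 low concentrations, 11 had a mean below vehicle in both batches and 0 a mean above it in both. A drop below the shared vehicle wells was thus common to most groups at low concentration. Other ratios went other ways: Abcc3 to Abcc2 was 0.95 and 1.0 above vehicle in the batches with WY14643 8 µM, and Abcc4 to Abcb11 was -1.37 and 0.02 from vehicle with caffeine 10000 µM.

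**Figure D5:**
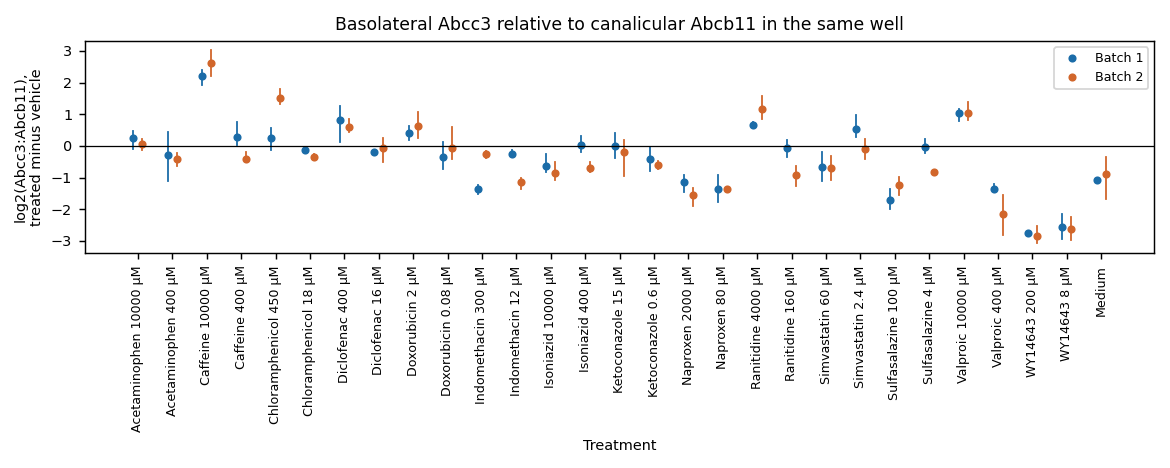
Log2 ratio of Abcc3 to Abcb11 reads within a WT well, minus the vehicle mean of the batch, for the 28 treatments and medium alone. Points are means of the wells of a batch and lines run from the lowest to the highest well. Caffeine 10000 µM stands highest (2.2 and 2.62) and WY14643 200 µM lowest (-2.74 and -2.86).

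The genes around these pumps were described from lists of other efflux genes, of receptors and regulators, and of canalicular scaffold and trafficking genes. Of 7 other efflux genes tested, 19 of 98 high-concentration pairs were called higher and 26 lower, or 19.4% and 26.5% where all genes gave 25.4% and 25.5%, with a median L2FC of -0.06 where that of all genes was 0.00. Abcg1 (a sterol exporter) was called in 12 treatments, 10 of them lower, from -2.85 (SE 0.27) with simvastatin 2.4 µM to 0.88 (SE 0.20) with doxorubicin 2 µM. Abca1, which loads cholesterol onto apolipoprotein A-I, was called in 10, from -1.94 (SE 0.22) with acetaminophen 10000 µM to 0.69 (SE 0.17) with caffeine 10000 µM. Tmem30a, a subunit of phospholipid flippases, was called in 9, of which 8 higher, up to 0.79 (SE 0.13) with diclofenac 400 µM. For Abca1 and Tmem30a the number of calls was not far above the share over all genes.

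All 10 receptors and regulators were tested, with 37 of 140 high-concentration pairs called higher (26.4%, near the share of all genes) and 58 lower (41.4%, against 25.5%) and a median L2FC of -0.04. At low concentrations 24 of 140 were called higher (17.1%, against 4.9% of all pairs) and 4 lower (2.86%, against 4.5%). Nr1i3 (CAR) was called in 18 treatments, from -4.63 (SE 0.41) with acetaminophen 10000 µM to 3.06 (SE 0.18) with WY14643 200 µM. Nr1i2 (PXR) was called in 17, from -4.45 (SE 0.19) with acetaminophen 10000 µM to 1.57 (SE 0.13) with WY14643 8 µM. Ppara was called in 15, from -3.26 (SE 0.27) with acetaminophen 10000 µM to 1.92 (SE 0.20) with caffeine 10000 µM. Nr1h4 (FXR), the bile acid receptor that drives Abcb11, was called in 8 treatments, 3 higher and 5 lower, from -2.86 (SE 0.19) with acetaminophen 10000 µM to 0.79 (SE 0.14) with valproic acid 400 µM. That number of calls was near the share over all genes.

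Of the scaffold and trafficking genes 8 were tested, and 20 of 112 high-concentration pairs were called higher (17.9%, against 25.4% of all pairs) and 39 lower (34.8%, against 25.5%), with a median L2FC of -0.10. Ezr (ezrin) was called in 11 treatments, from -1.43 (SE 0.20) with WY14643 200 µM to 1.81 (SE 0.17) with ranitidine 4000 µM. Slc9a3r1, which tethers membrane proteins to the cytoskeleton, was called in 11, from -1.0 (SE 0.13) with diclofenac 400 µM to 2.26 (SE 0.12) with acetaminophen 10000 µM.

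Medium alone tested the vehicle itself. Without DMSO, Abcb11 was at 144, 145 and 152 CPM in batch 1 and 175 to 237 CPM (median 194) in batch 2, above every vehicle well, an L2FC of 0.79. The Abcb4/Abcb1a probe (0.82) and Abcg2 (0.54) were also called higher, so 3 of 6 transporters were called, or 2 of 5 without that probe, where 12.6% of all genes were. In the ST assay 2 of 7 were called, Abcb11 and Abcg2, where 21.6% of all genes were. With 1 sum of wells per rat 0 of 6 were called in the WT assay.

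Between the concentrations of a chemical, 46 of 84 transporter and chemical pairs were called, where 40.8% of all gene and chemical pairs were. The 46 include the Abcb4/Abcb1a probe with acetaminophen, diclofenac, indomethacin, isoniazid, ketoconazole, naproxen, ranitidine and valproic acid. That probe passed the count limit through its high groups. Chloramphenicol, for example, differed for Abcc2 by 1.27 (SE 0.16, adjusted p = 5.3e-11) and for Abcc3 by 1.04 (SE 0.16, adjusted p = 1.3e-07). Between the WY14643 concentrations the call was made for Abcc2 alone, with the losses given above, and the other 5 differed by -0.01 (Abcg2, SE 0.17) to 0.32 (the Abcb4/Abcb1a probe, SE 0.61) without passing the threshold.

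The batches differed in 14 of 168 transporter and treatment pairs by the interaction of batch and treatment, where 2.44% of all pairs were called, and 13 of the 14 were at high concentrations. Rat, plates, library preparation and sequencing run all changed with the batch and cannot be told apart. In 4 of them the L2FC had opposite signs in the batches, among them Abcb11 with caffeine 10000 µM (-1.32, SE 0.19, adjusted p = 8.4e-08) and Abcg2 with indomethacin 300 µM (1.16, SE 0.23, adjusted p = 5.6e-04). Batch 1 had vehicle wells on 1 of its plates only, so a difference between plates cannot be told apart there from the effect of acetaminophen, chloramphenicol, indomethacin, ketoconazole, sulfasalazine or WY14643. In batch 2, vehicle wells of the plates differed for 0 of 6 transporters by edgeR (0.0% of all genes, with 1423 of 10189 at an unadjusted p under 0.05). The transporter with the lowest unadjusted p was Abcg2, at -0.45 for plate 3 minus plate 2 (SE 0.16, unadjusted p = 0.0064).

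The assays gave like values for the pairs both could test. Of 75 WT calls and 73 ST calls over 168 pairs, 64 were shared, and all 64 had the same direction. The Abcb4/Abcb1a probe, which passed the WT count limit through its high groups, gave 12 of the 64. The median absolute difference of L2FC between the assays was 0.12. As lysates were shared, this checks the assay and not the animals.

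Genes whose levels followed a transporter most closely over the 60 means of treatment and batch, by Pearson's r of log2(CPM + 1) centred on the batch, were Sigirr (0.88), Lhpp (0.87) and Acad10 (0.87) for Abcb11, Sfxn1 (0.88), Cutc (0.84) and Akr1a1 (0.83) for Abcc2, and Ormdl3 (0.73), Hspa4l (0.73) and Elovl5 (0.71) for Abcg2. For the Abcb4/Abcb1a probe they were Pabpc1 (0.89), Ipo5 (0.89) and Hbs1l (0.88), for Abcc3 LOC103690028 (0.79), Paox (0.78) and LOC103689968 (0.77), and for Abcc4 Ybx1 (0.79), Rpp38 (0.78) and Psme3 (0.78). In the ST assay they were Ptprf (0.89), Ier3 (0.87) and Fat1 (0.84) for Abcb1b. Between transporters, r was 0.67 for Abcc2 and Abcc3, 0.70 for the Abcb4/Abcb1a probe and Abcc4, and -0.60 for Abcc3 and Abcg2, while Abcb11 and Abcc2 gave 0.06. These points share vehicle, depth and rats and carry no test.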

How the data were processed

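TempO-Seq, in which paired detector probes are ligated on RNA in a lysate and sequenced, was run with the ST and WT probe sets on the same lysates of rat hepatocytes. Per the labels and methods, the authors demultiplexed the reads, aligned them to the rn6 genome with STAR (2.5.3a) and deposited raw counts per probe and well. Probes of one gene symbol were added, and CPM was computed over all probes of the well. The ST table was used to check the WT table and to read Abcb1b.

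Counts were tested with edgeR (4.0.16, R 4.3.3) by its quasi-likelihood test with TMM scaling, over genes whose mean count was 10 or more, with a term for treatment and a term for batch and all wells in 1 fit. P-values were adjusted by the Benjamini-Hochberg method over all genes of a comparison, and the threshold was 0.05. Batch marks the rat, so the batch term is the pairing of treated and vehicle wells. Well numbers within a batch pair nothing. DESeq2 (1.42.0) was an alternative.

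On simulated counts for naproxen 80 µM against vehicle, 178 of 200 genes changed 2-fold were recovered among 10191, with 7 false calls. Simulated wells were drawn independently, with the same change in both batches, so these figures do not cover the spread between rats. Depth was 2289425 to 8975207 reads in WT wells and 558190 to 2210264 in ST wells. Floors are 3 counts and cover counting error of the vehicle wells only. Ratios within a well used 0.5 reads as pseudocount.

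Full statistics were given for up to 2 treatments with the highest and up to 2 with the lowest L2FC per transporter among calls of the same sign in each batch. Abcb1b was described by the same rule in the ST assay, and other values were chosen after they were seen. The transporters and gene lists were chosen with earlier results of these data known. Chemicals were assigned by the labels alone, with "Valproic" read as valproic acid. A summary of calls by chemical in the study fits the labels only if the names of several chemicals are exchanged, ketoconazole and doxorubicin with each other among them. By itself it cannot tell whether the exchange lies in the summary or in the labels, so chemical names carry that doubt. In the wells labelled ketoconazole 15 µM, L2FC was 2.74 for Insig1, 2.88 for Idi1 and 2.23 for Sqle (sterol synthesis and its control), and -0.56, 0.24 and -0.38 in those labelled doxorubicin 2 µM. Each of these genes ranked 1 of 28 treatments in the former, and they ranked 27, 16 and 26 in the latter. For the p53 targets Cdkn1a and Mdm2 the L2FC was 0.09 and 0.55 in the former (ranks 15 and 7). It was 1.45 and 1.28 in the latter (ranks 3 and 4). These genes were chosen after their values were seen, and the other names were not tested. Promoter windows came from RefSeq (GRCr8), another build than that of the files, and were matched by symbol. One gene of the scaffold list is counted with its list and is not reported here by itself.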

Additional observations from a re-analysis of the deposited data

Results flagged for a closer look

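In 3 of 26 groups of 6 vehicle or medium wells checked, 1 well stood apart from the others, where chance gives about 1 in 20. Abcc4 was at 4.58 CPM in 1 WT vehicle well of batch 2, where the next was at 2.52 CPM. The Abcb4/Abcb1a probe was at 20.3 CPM in 1 ST vehicle well of batch 2, where the next was at 11 CPM. Abcc3 was at 108 CPM in 1 ST vehicle well of batch 2, where the next was at 94.3 CPM.

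In 6 of 23 pairs described with full statistics and tested for it, the L2FC differed between the batches (rat, plates, library preparation and sequencing run together) by the interaction of batch and treatment (edgeR, batch 2 minus batch 1). For Abcb11 the difference was -0.75 with indomethacin 300 µM (adjusted p = 0.0106), -0.77 with valproic acid 10000 µM (adjusted p = 0.00492) and -0.914 with diclofenac 400 µM (adjusted p = 0.000475). For Abcc2 with acetaminophen 10000 µM it was 1.67 (adjusted p = 8.14e-06). For caffeine 10000 µM it was 1.49 for Abcg2 (adjusted p = 7.3e-06) and -0.911 for Abcc3 (adjusted p = 0.00692). These pairs had been chosen for the same sign in both batches. Over all 14 pairs with an interaction call, 4 had opposite signs.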

How the results depend on the processing

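Of 43 calls of a transporter above vehicle and 32 below in the WT assay, 27 and 24 were called with 1 sum of wells per rat, and 20 and 16 with an absolute L2FC of at least 1 asked for as well. Without the replicate block (batch) there were 35 and 32. With each replicate or vehicle well left out in turn, 38 to 42 and 29 to 33 were called. For medium against vehicle the 3 calls became 0 with 1 sum per rat, 0 with the limit on L2FC, 1 in batch 1 alone and 1 without the replicate block (2 to 3 with a well left out). Between concentrations the 46 calls became 24 with the limit on L2FC, 31 with 1 sum per rat, 36 without the replicate block, and 33 to 46 with a replicate left out. The cause was not tested. RLE size factors, library totals alone and no filter on low counts, and DESeq2 and batch 2 alone where run, kept these counts, the 86 ST calls, the 14 interaction calls and the 0 calls between plates within 1.5 times (13 to 17 interaction calls by scaling, 11 with no filter). Leaving out the Abcb4/Abcb1a probe, chosen after seeing the data, left 33 and 29. Of 475 repeats over 26 pairs given with full statistics, single batches aside since the pairs were chosen for the same sign in each, 470 kept direction and call and 5 lost the call. Calls lost in batch 1 alone were Abcc3 with chloramphenicol 450 µM (0.54, adjusted p = 0.0750), Abcc4 with naproxen 2000 µM (0.83, adjusted p = 0.0584) and the Abcb4/Abcb1a probe with both concentrations of WY14643. Library totals alone shifted the median L2FC of all genes by -0.41 (acetaminophen 10000 µM) to 0.27 (valproic acid 10000 µM), by over 0.1 in 10 of 28 treatments. Taking the highest probe of a gene alone changed nothing, since each transporter had 1 probe. Few reads limit the Abcb4/Abcb1a probe, Abcc4, Abcg5 and Abcg8.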
